A study of Mus musculus with 6 samples.

Results

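The expression of 8 protein kinase C genes was followed in the hippocampus of newborn mice kept in high oxygen: Prkca, Prkcb, Prkcd, Prkce, Prkch, Prkcq, Prkci and Prkcz. These 8 were taken by gene symbol from a table of 24935 genes, and all 8 were among the 17778 genes with enough signal to be tested. The libraries came from the left hippocampus of C57BL/6 pups of both sexes at postnatal day 14 (P14). The 3 air-exposed animals (Air) had been kept in room air, and the 3 hyperoxia-exposed animals (Hyperoxia) had been kept with their dams in 85% oxygen at normal pressure from P2 to P14. The paper describes no allele, transgene or drug for either group. The authors' own comparison carries the label Oil on its air side and on its oxygen side. The paper does not explain that label, so a treatment shared by all animals was not excluded. Air libraries and Hyperoxia libraries are numbered 1 to 3 here as in the table, and each stands for 1 animal.

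Protein kinase C enzymes are serine/threonine kinases that act downstream of receptors coupled to phospholipase C, which splits a membrane lipid into diacylglycerol and a soluble messenger that releases calcium. The conventional isoforms need both diacylglycerol and calcium, a further class responds to diacylglycerol without calcium, and the atypical isoforms respond to neither and work with Par polarity proteins. In the hippocampus these kinases are known for their part in transmitter release, receptor trafficking and synaptic plasticity.

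The data are mRNA levels given as normalized counts, that is, reads per gene divided by 1 scaling factor for each library. The libraries held 30384052 to 38746972 reads on genes, and a typical tested gene had between 449 and 576 reads in a library. The first principal component (52.7% of the variance) parted the groups, and Hyperoxia library 2 stood apart from the rest on the second (19.5%). Hyperoxia library 3 stood apart in choroid plexus signal, with summed markers of 15703 against 3983 to 6154 in the other 5 libraries. The inactive-X transcript Xist was high in Air library 3 and Hyperoxia library 1 and at most 40.8 in the other 4, so each group held 1 female library. Defining markers of dentate granule cells (Prox1, 5181 to 8665), CA1 (Wfs1, 4554 to 9058) and CA3 (Grik4, 1984 to 3072) were present in each library. Genes of the marker lists were counted in the same fit, in which 30.5% of all tested genes were called in either direction. The share called was above 50% in the dentate granule, oligodendrocyte, endothelial and neocortex lists, and was near or below that of all genes in the interneuron (33.3%), microglia (28.6%) and choroid plexus (14.3%) lists. Of the dentate granule list 0 of 6 genes were higher and 5 lower in hyperoxia, of the oligodendrocyte list 0 of 6 and 5, of the endothelial list 5 of 8 and 1, of the thalamus list 6 of 12 and 0, of the neocortex list 2 of 5 and 1, of the oligodendrocyte precursor list 2 of 4 and 0, of the astrocyte list 2 of 6 and 1, of the CA1 list 2 of 5 and 0, of the CA3 list 0 of 5 and 2, of the microglia list 2 of 7 and 0, of the interneuron list 1 of 6 and 1, and of the choroid plexus list 1 of 7 and 0. In whole tissue, fewer cells of a type and less RNA per cell cannot be told apart.

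Across the 8 genes the differences between the groups were divided. Directions follow the group names in the table's column headings, and no gene altered by design was there to check those names. The paper on these animals gives the mRNA of the beta isoform as decreased with hyperoxia, the reverse of the direction found here. The conflict was not confined to that gene. The paper's sign for Prkca, a rise that it does not count as a difference, is also the reverse of that found here. So are its signs for Rictor, Pick1 and Cspg4, genes of the lists used here. Which direction is right was not settled, and every rise and fall in this report depends on it. Prkcb and Prkch mRNA rose, Prkcq lay higher without passing the test, Prkca and Prkce lay lower without passing it, and Prkcd, Prkci and Prkcz had intervals that spanned 0. Of the 8 genes, 2 (25.0%) passed an adjusted p of 0.05 by limma, compared with the 30.5% of all tested genes, so the share called was near the background. Both called genes were higher, where 14.9% of all tested genes were called higher and 15.6% lower. In 2 of 8 genes the 3 Hyperoxia libraries did not overlap the 3 Air libraries, against 46.1% of all tested genes. The median log2 fold change of the 8 genes (hyperoxia minus air, on log2 of the normalized count plus 1) was −0.0043, and that of all tested genes was −0.0072. At an unadjusted limma p under 0.05 there were 5 of 8 genes, 3 higher and 2 lower. The share of all tested genes at that threshold was not counted and is at least the 30.5% above. Without that share the count of 5 cannot be read as a result about these genes as a family.

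**Figure D1:**
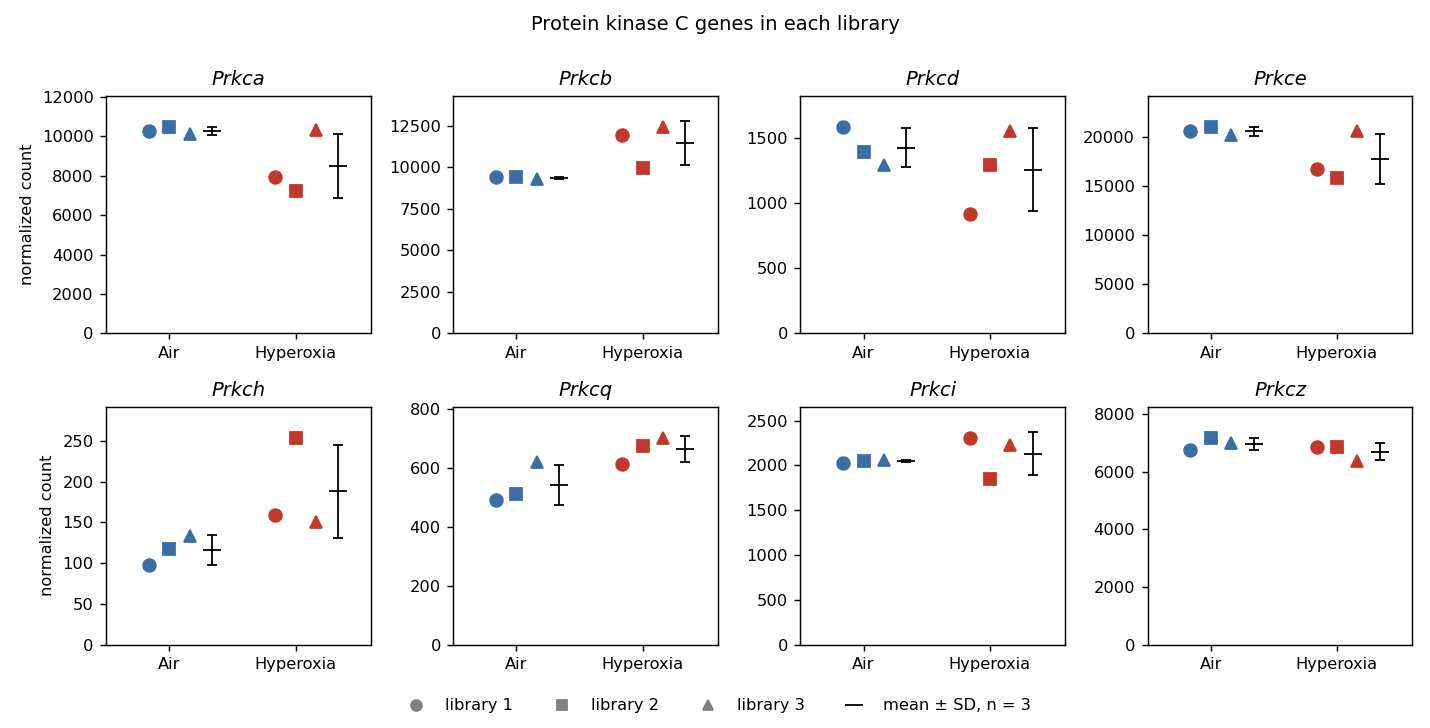
Normalized counts of the 8 protein kinase C genes in each library, 3 Air (blue) and 3 Hyperoxia (red), with the mean ± SD of each group (n = 3). Each vertical axis starts at 0. Prkcb and Prkch are the genes whose groups do not overlap, and Hyperoxia library 3 lies among the Air libraries for Prkca and Prkce.

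Prkca encodes the conventional isoform alpha, which is widely expressed and abundant in neurons. The gene lies on the minus strand of chromosome 11, from 107933387 to 108343928 (ENSMUSG00000050965.14; all positions are on GRCm38). Its normalized counts were 10261, 10495 and 10095 in the Air libraries and 7911, 7211 and 10310 in the Hyperoxia libraries. Hyperoxia libraries 1 and 2 were below each Air library, whereas Hyperoxia library 3 was inside the Air range, so the groups overlapped. The group means were 10284 ± 201 for Air and 8477 ± 1626 for Hyperoxia (SD, n = 3 each). The log2 fold change was −0.30 (SE 0.12, 95% interval −0.56 to −0.03, limma adjusted p = 0.086) and was not called. Without Hyperoxia library 3 it was −0.45 (limma adjusted p = 0.0024), and after removal of each library's trend on gene length and GC content it was −0.46 (limma adjusted p = 0.0029). Hyperoxia library 3, on which the call turned, was also the library with the high choroid plexus markers (Ttr 7454, against 167 to 887 in the other 5), and the part of these in the Prkca level was not tested. The gene shares 30 exon bases (0.334% of its exon length) with Apoh on the opposite strand.

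Prkcb encodes the conventional isoform beta, which is prominent in forebrain neurons and is also found in cells of the immune system. It lies on the plus strand of chromosome 7, from 122288751 to 122634402 (ENSMUSG00000052889.11). The Air libraries held 9381, 9401 and 9268 normalized counts of Prkcb, and the Hyperoxia libraries 11930, 9955 and 12438. The 3 Air libraries were tightly grouped, and each Hyperoxia library was above them, library 2 by the smallest margin. By the column headings Prkcb rose from 9350 ± 71.8 (SD, n = 3) to 11441 ± 1312 (SD, n = 3), a log2 fold change of 0.28 (SE 0.09, 95% interval 0.08 to 0.49, limma adjusted p = 0.038). The paper reports a decrease of this mRNA, as stated above. The call was made in 11 of 18 other settings. It was lost on leaving out Air library 1, 2 or 3 (limma adjusted p = 0.11 each), Hyperoxia library 1 (0.13) or Hyperoxia library 3 (0.088), and without Hyperoxia library 2 the adjusted p was 4.2e-04 with a log2 fold change of 0.38. Summed microglial markers were 10484 to 10555 in air and 11113, 12247 and 11159 in Hyperoxia libraries 1, 2 and 3, highest in the Hyperoxia library with the least Prkcb. Their part in the result was not tested.

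The balance between the conventional isoforms differed between the groups in each library. Per kilobase of exon, the ratio of Prkcb to Prkca was 1.07, 1.05 and 1.08 in the Air libraries and 1.77, 1.62 and 1.42 in the Hyperoxia libraries. Such a ratio does not depend on how a library was scaled. The groups did not overlap, and the log2 ratio was 0.58 higher in hyperoxia (exact two-sided permutation test, p = 0.1, the smallest value that 3 animals against 3 can give). Its direction rests on the group names of the column headings, as for Prkcb and Prkca, whose signs in the paper are both the reverse. Hyperoxia library 3, with Prkca at the air level and the most Prkcb of all 6 libraries, had the lowest of the 3 Hyperoxia ratios.

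**Figure D2:**
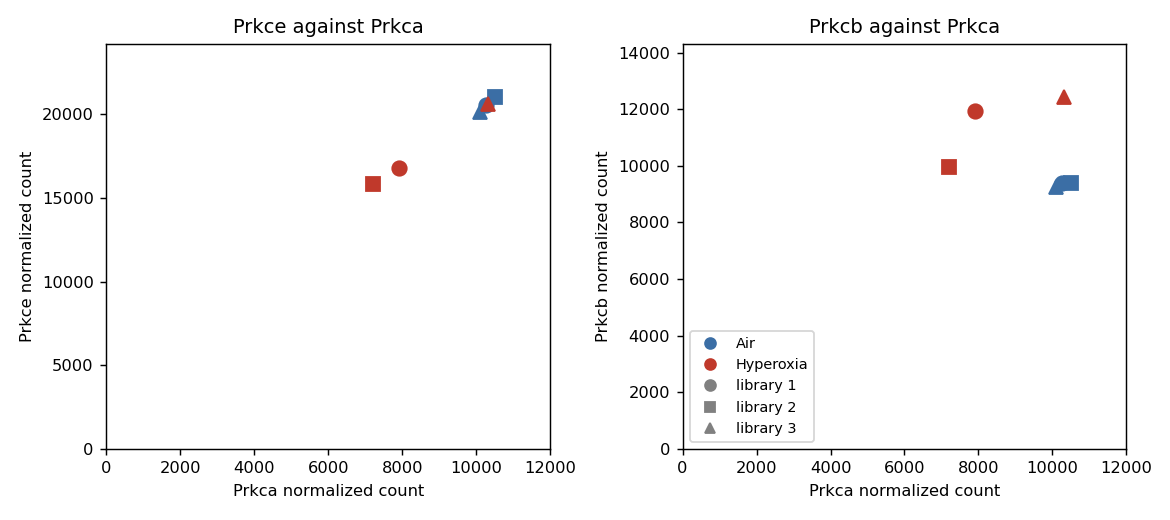
Normalized counts of Prkce (left) and Prkcb (right) against Prkca in each of the 6 libraries, Air in blue and Hyperoxia in red, with the library number shown by the symbol. Prkce and Prkca lie along 1 line, whereas for Prkcb the Hyperoxia libraries lie above the Air libraries. Prkca is below the Air range in Hyperoxia libraries 1 and 2 and within it in Hyperoxia library 3.

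Prkcd encodes isoform delta, a calcium-independent kinase that is strong in thalamic relay nuclei, so that its mRNA also serves as a marker of thalamic tissue. It lies on the minus strand of chromosome 14, from 30595354 to 30626210 (ENSMUSG00000021948.15). Normalized counts of Prkcd were 1585, 1388 and 1292 in the Air libraries and 918, 1292 and 1552 in the Hyperoxia libraries. Hyperoxia library 1 was the lowest of all and Hyperoxia library 3 was close to the highest Air library, so the groups overlapped widely. The group means were 1421 ± 150 for Air and 1254 ± 319 for Hyperoxia (SD, n = 3 each), giving a log2 fold change of −0.21 (SE 0.17, 95% interval −0.59 to 0.17, limma adjusted p = 0.37). Without Hyperoxia library 1 the log2 fold change was −0.00040.

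Of the thalamus markers, a list that did not include Prkcd, 6 of 12 tested genes rose and 6 did not pass the test, Tnnt1 (−0.46) lying lowest. The list's summed normalized counts were 6792 to 7134 in air and 9298, 13232 and 9002 in Hyperoxia libraries 1, 2 and 3. Tcf7l2, a transcription factor of the thalamus, had a log2 fold change of 0.76 and Slc17a6, the vesicular glutamate transporter of thalamic neurons, 1.72, and both were called. Gbx2, a defining gene of the embryonic thalamus, stayed between 2.05 and 12.5 normalized counts and was too low to be tested, and Rgs16 (0.24) was not called. Prkcd in Hyperoxia library 2, where the thalamus markers were highest, was 1292, within 1 normalized count of the lowest Air value. The part of thalamic tissue in the level of Prkcd was not tested.

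Prkce encodes isoform epsilon, a calcium-independent and actin-binding kinase found at presynaptic sites. It lies on the plus strand of chromosome 17, from 86167785 to 86657919 (ENSMUSG00000045038.14). Its normalized counts were 20575, 21058 and 20163 in the Air libraries and 16785, 15812 and 20615 in the Hyperoxia libraries. Hyperoxia libraries 1 and 2 were again below each Air library and Hyperoxia library 3 was among them. The group means were 20599 ± 448 for Air and 17737 ± 2539 for Hyperoxia (SD, n = 3 each), giving a log2 fold change of −0.23 (SE 0.10, limma adjusted p = 0.12) that was not called. Without Hyperoxia library 3 it was −0.34 (limma adjusted p = 0.0093), and with the length and GC correction −0.31 (limma adjusted p = 0.015), whereas under quantile normalization it was −0.10 (limma adjusted p = 0.47). As for Prkca, the call turned on the library with the high choroid plexus markers. Of its exon bases 472 (6.50%) are shared with a second annotated transcript on the same strand, which is not in the table.

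Prkca and Prkce followed each other closely from library to library. Among 12771 genes with a mean of at least 100, Prkce was the gene most like Prkca, and Prkca was the gene most like Prkce, with a Pearson r of 0.999 over the 6 libraries on the log2 scale. They were not alone in this pattern, since 94 genes were above an r of 0.95 with Prkca and 82 with Prkce. Lrif1 came next for both (0.995 and 0.993). The r between Prkca and Prkce was also 0.998 once each group's mean was removed. It rested mostly on the Hyperoxia libraries, where the SD was 19.2% of the mean for Prkca and 14.3% for Prkce, against 1.96% and 2.17% in air. The per-kilobase ratio of Prkce to Prkca was 2.48, 2.48 and 2.47 in the Air libraries and 2.63, 2.72 and 2.48 in the Hyperoxia libraries. These points share their library, its depth and its tissue makeup, and the r values are a description. Dentate granule markers summed to 18000 to 18294 in air and to 10661, 11039 and 15910 in Hyperoxia libraries 1, 2 and 3, lowest in the libraries where Prkca and Prkce were lowest. The CA3 list summed to 10083 to 11038 in air and to 7728, 9193 and 10822 in hyperoxia, and was also within the Air range in Hyperoxia library 3. The part of these cell types in the levels of Prkca and Prkce was not tested.

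Prkch encodes isoform eta, a calcium-independent kinase best known from epithelia. It lies on the plus strand of chromosome 12, from 73584796 to 73778185 (ENSMUSG00000021108.17). With 97.0, 117 and 133 normalized counts in the Air libraries and 159, 254 and 151 in the Hyperoxia libraries, Prkch was the least counted of the 8 genes. Each Hyperoxia library was above each Air library, and library 2 stood well above the other Hyperoxia libraries. Prkch rose from 116 ± 18.3 (SD, n = 3) to 188 ± 57.2 (SD, n = 3), 1.62 times the air level, with a log2 fold change of 0.66 (SE 0.21, 95% interval 0.19 to 1.13, limma adjusted p = 0.039). It rested on 103 to 224 reads per library, for which counting error alone is 9.85% at the lowest count. The call was made in 9 of 18 other settings. Without Hyperoxia library 2 the log2 fold change was 0.43 (limma adjusted p = 0.053), and the call was also lost without Air library 1 (0.15), Air library 2 (0.10), Air library 3 (0.052) or Hyperoxia library 1 (0.057). Endothelial markers summed to 8174 to 8340 in air and to 9424, 10866 and 9839 in Hyperoxia libraries 1, 2 and 3. Library 2 of Hyperoxia also had the highest sums of the thalamus, microglia, astrocyte, interneuron, oligodendrocyte precursor and T-cell lists. It was not highest for the oligodendrocyte, choroid plexus, CA1, CA3, dentate granule and neocortex lists. Cldn5 (log2 fold change 0.57) and Cdh5 (0.37) were called higher and Ly6c1 (−0.96) lower. Their part in the level of Prkch was not tested.

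**Figure D3:**
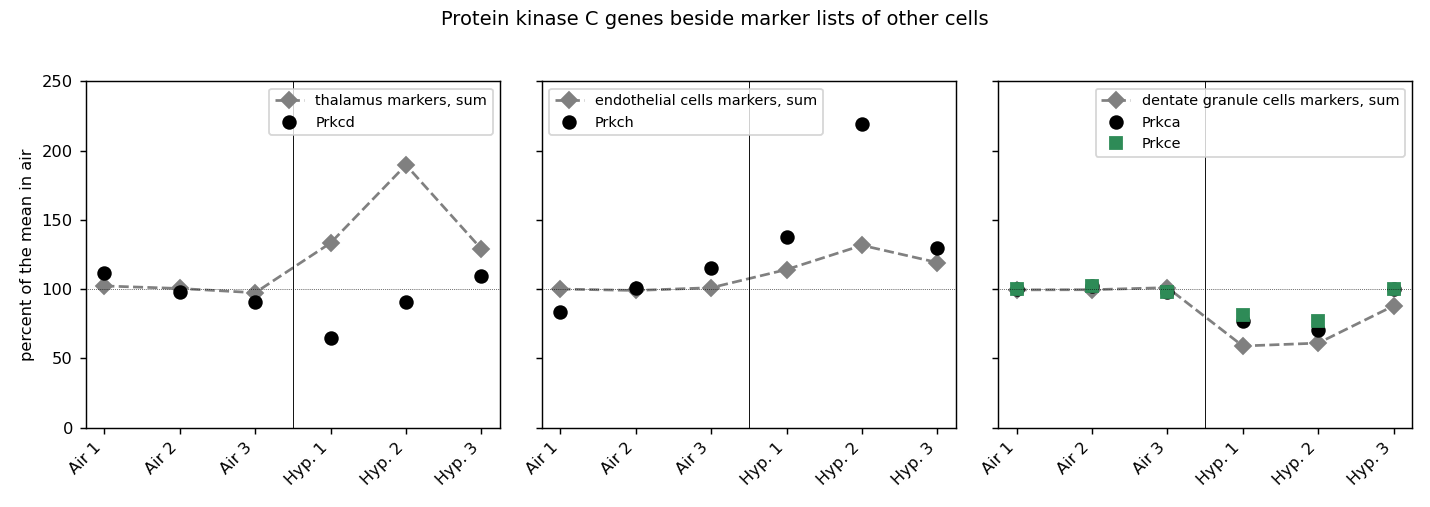
Prkcd beside the summed thalamus markers, Prkch beside the summed endothelial markers, and Prkca and Prkce beside the summed dentate granule markers, each as a percent of its mean in the 3 Air libraries. A vertical line parts Air from Hyperoxia. Prkcd does not follow the thalamus markers upward. Prkch and the endothelial markers are both highest in Hyperoxia library 2, as are several other marker lists, including thalamus and microglia. Prkca, Prkce and the dentate granule markers are all lowest in Hyperoxia libraries 1 and 2.

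Prkcq encodes isoform theta, a calcium-independent kinase that relays T-cell receptor signals. It lies on the plus strand of chromosome 2, from 11172108 to 11301222 (ENSMUSG00000026778.13). Its normalized counts were 492, 512 and 618 in the Air libraries and 614, 675 and 702 in the Hyperoxia libraries. The groups overlapped by a narrow margin, since Air library 3 was just above Hyperoxia library 1. The group means were 540 ± 67.9 for Air and 664 ± 44.7 for Hyperoxia (SD, n = 3 each), giving a log2 fold change of 0.30 (SE 0.11, limma adjusted p = 0.060) that was not called. It was called without Air library 3 (0.40, limma adjusted p = 0.033) and by DESeq2 (adjusted p = 0.048). The T-cell genes Cd3e, Cd3g and Cd2 were at most 7.53 normalized counts in each library, and Lck, at 49.9 to 86.0, was the only T-cell gene tested and was not called. The part of T cells in the Prkcq level was not tested.

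Prkci and Prkcz encode the atypical isoforms iota and zeta, the kinase partners of the Par3 and Par6 polarity proteins. Prkci lies on the plus strand of chromosome 3, from 30995747 to 31052959 (ENSMUSG00000037643.14). The Air libraries held 2031, 2052 and 2063 normalized counts of Prkci, and the Hyperoxia libraries 2308, 1853 and 2230. Hyperoxia libraries fell on either side of the narrow Air range, with library 2 below it. The group means were 2049 ± 15.9 for Air and 2130 ± 243 for Hyperoxia (SD, n = 3 each), giving a log2 fold change of 0.05 (SE 0.09, 95% interval −0.15 to 0.25, limma adjusted p = 0.70), whose sign turned in 2 of 18 other settings.

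Prkcz lies on the minus strand of chromosome 4, from 155260129 to 155361361 (ENSMUSG00000029053.16), and in brain also gives rise to a truncated, constantly active kinase, PKM zeta, which counts per gene do not separate from the full-length form. Normalized counts of Prkcz were 6766, 7180 and 6991 in the Air libraries and 6871, 6865 and 6377 in the Hyperoxia libraries. The groups overlapped, and Hyperoxia library 3 was the lowest. The group means were 6979 ± 207 for Air and 6705 ± 284 for Hyperoxia (SD, n = 3 each), giving a log2 fold change of −0.06 (SE 0.07, 95% interval −0.21 to 0.09, limma adjusted p = 0.54), the narrowest interval of the 8 genes. A processed copy of this gene, Prkcz2 on chromosome 7, held 21.7, 22.4 and 29.8 normalized counts in air and 46.0, 32.8 and 44.4 in hyperoxia, small beside Prkcz, and reads common to both could have been assigned to either.

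**Figure D4:**
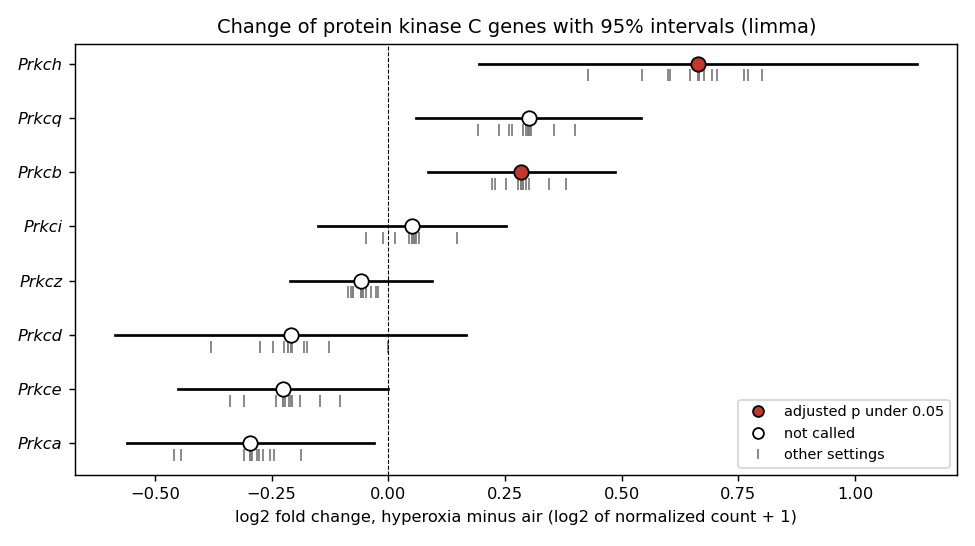
Log2 fold change (hyperoxia minus air) of the 8 protein kinase C genes with 95% intervals from limma, n = 3 animals in each group. Filled points passed an adjusted p of 0.05, and short ticks below each line are the 18 other settings. Prkcb and Prkch are the filled points, and the ticks of Prkci lie on both sides of 0.

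The Hyperoxia libraries were more spread than the Air libraries in 7 of the 8 genes, Prkcq being the exception. The same was true of 71.3% of all tested genes. The limma p-values rest on the spread between these animals, moderated toward that of other genes of similar level. With 3 against 3, a small number, they depend on how that moderation is done. Without the trend, where the spread was moderated toward a value common to all genes, 0 of the 8 genes were called. A fit without moderation was not run.

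Levels between genes were compared per kilobase of merged exon length. Prkce was the most abundant of the 8, with 2837 ± 61.7 normalized counts per kilobase in air and 2443 ± 350 in hyperoxia (SD, n = 3). Prkcb followed with 1222 ± 9.38 and 1495 ± 171, Prkca with 1144 ± 22.4 and 943 ± 181, and Prkcz with 1105 ± 32.8 and 1061 ± 44.9. These 4 genes made up most of the signal, and the other 4 were far lower. Prkci stood at 369 ± 2.87 and 384 ± 43.8, Prkcd at 256 ± 27.0 and 226 ± 57.5, Prkcq at 76.3 ± 9.59 and 93.7 ± 6.32, and Prkch at 15.4 ± 2.43 and 24.9 ± 7.59.

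The order of these levels was the same in each library except for Prkca and Prkcz. Prkca was above Prkcz in the 3 Air libraries and in Hyperoxia library 3 (1147 against 1009), and below it in Hyperoxia library 1 (880 against 1088) and Hyperoxia library 2 (802 against 1087). Prkca and Prkcz are the neighbours in the order whose library values overlapped within each group. The summed level of the 8 genes was 6927 to 7140 per kilobase in air and 6063 to 7421 in hyperoxia. Within that sum the mean share of Prkce was 40.4% in air and 36.5% in hyperoxia, that of Prkcb 17.4% and 22.4%, and that of Prkca 16.3% and 14.1%.

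**Figure D5:**
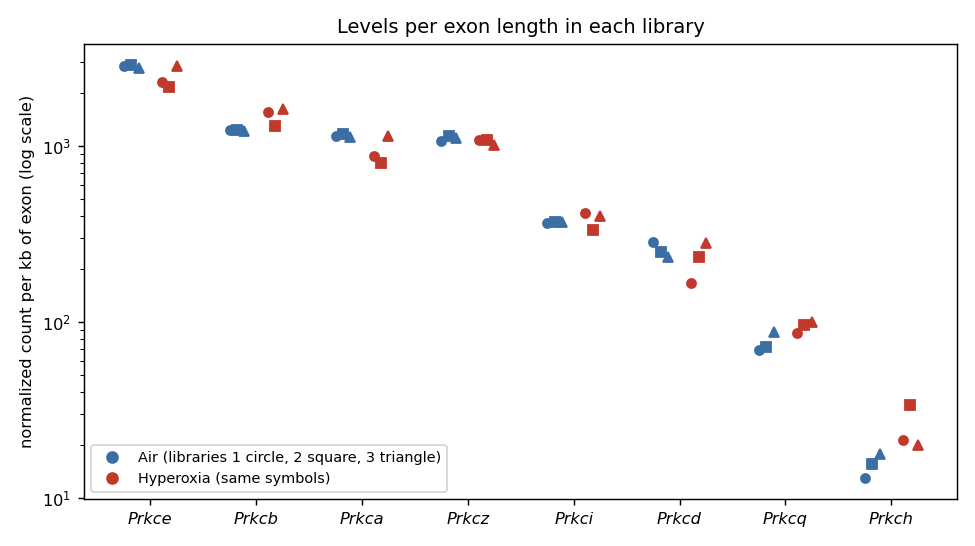
Normalized count per kilobase of merged exon length for the 8 genes in each library, on a log axis, Air in blue and Hyperoxia in red, in order of the mean level in air. Prkce is highest and Prkch lowest in each library, and Prkca and Prkcz exchange places in Hyperoxia libraries 1 and 2.

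The other genes had their own nearest patterns over the 6 libraries. Prkcb was most like Fer (r = 0.999), with 646 genes above an r of 0.95. Prkch was most like Dcaf11 (0.993), Prkci most like Rasal2 (0.988), Prkcq most like Taf5 (0.987), Prkcz most like Map2k3 (0.984) and Prkcd most like Bend7 (0.982). For Prkcd and for Prkcz, 7 genes were above 0.95, so few other genes shared their pattern. With 6 points that share depth and tissue makeup, these values are a description.

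Around the kinases, 60 further genes of the pathway were examined, all of them tested. Of these, 29 (48.3%) were called, 20 higher and 9 lower, compared with the 30.5% of all tested genes given above, and their median log2 fold change was 0.15 beside −0.0072 for all tested genes. The lists were chosen with earlier results of these data known, so the share and the median describe these genes and are no test of the pathway. The phospholipase C genes make diacylglycerol, and 4 of 12 rose while 1 fell. Plch1 rose from 232 ± 17.3 to 453 ± 91.8 (log2 fold change 0.94, limma adjusted p = 0.0018) and Plcd3 from 236 ± 25.5 to 463 ± 119 (0.94, adjusted p = 0.0054), whereas Plch2 fell from 3938 ± 468 to 2794 ± 407 (−0.50, adjusted p = 0.012).

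The diacylglycerol kinases remove diacylglycerol by phosphorylating it, and 3 of 10 rose while 2 fell. Dgkk had 60.3, 32.6 and 47.2 normalized counts in the Air libraries and 191, 340 and 187 in the Hyperoxia libraries, without overlap (log2 fold change 2.32, limma adjusted p = 7.7e-04). Dgkd also rose (0.42, adjusted p = 0.0055). Dgkz, by far the most counted of the list, fell from 25119 ± 400 to 18212 ± 943 (−0.47, adjusted p = 0.0021), and Dgka fell by 0.51 on the log2 scale (adjusted p = 0.0027).

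Diacylglycerol also binds members of other protein families. Of 9 genes of such families 4 rose while 1 fell, and binding by each of their products was not examined. Unc13c, a synaptic vesicle priming factor, rose from 557 ± 90.0 to 1391 ± 184 (log2 fold change 1.32, limma adjusted p = 3.9e-04), and Rasgrp2, a Ras-family exchange factor, rose by 0.62 (adjusted p = 0.0053). Chn1, the Rac regulator alpha-chimaerin, fell from 24529 ± 1313 to 17129 ± 331 (−0.52, adjusted p = 0.0014). Of the protein kinase D and related genes, which lie downstream of or beside protein kinase C, 2 of 6 rose, Prkd3 by 0.46 (adjusted p = 0.0056) and Prkd1 by 0.32 (adjusted p = 0.036), and 0 fell.

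Among 15 genes for priming kinases, phosphatases and anchoring proteins, 5 rose and 3 fell. The anchoring protein gene Akap12 rose from 892 ± 48.9 to 1626 ± 62.4 (log2 fold change 0.87, limma adjusted p = 2.9e-04). The genes of the Par6 proteins, which hold the atypical isoforms, went in opposite directions, with Pard6g up by 0.55 (adjusted p = 0.0099) and Pard6b down (−0.53, adjusted p = 0.028). Cdc37, the kinase co-chaperone that matures protein kinase C, fell by 0.38 (adjusted p = 0.0059).

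The substrate list was divided as well, with 2 of 8 genes higher and 2 lower. Gap43, a growth cone protein phosphorylated by protein kinase C, rose from 6790 ± 592 to 10239 ± 1157 (log2 fold change 0.59, limma adjusted p = 0.0027), and Marcksl1 rose by 0.42 (adjusted p = 0.012). Nrgn, the postsynaptic calmodulin-binding substrate neurogranin, had 73976, 66822 and 66382 normalized counts in the Air libraries and 35062, 41702 and 34949 in the Hyperoxia libraries (−0.89, adjusted p = 5.4e-04). Ppp1r14a, whose product inhibits myosin phosphatase once phosphorylated, fell by 0.79 (adjusted p = 0.0073). The fall of Nrgn stood beside the lower dentate granule markers given above, and that of Ppp1r14a beside lower oligodendrocyte markers (211426 to 321844 in air, 144727 to 177382 in hyperoxia), and their part was not tested.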

How the data were processed

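Poly(A)-selected, strand-specific libraries from 3 air-exposed and 3 hyperoxia-exposed mice were sequenced by the authors. The deposited values are normalized signal per gene, reads divided by 1 size factor for each library. The submitters' processing notes name FastQC, STAR 2.5.3a, HTSeq and DESeq2. The genome build was not given in the sources used here, nor was the strand setting of the counting. A second deposited table holds the authors' own comparison (mean, fold change, standard error, statistic and p-values) and was not used. Table columns name the group and a number, not the animal, and all directions rest on those group names. Unmatched value columns numbered 0.

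Genes with a mean of at least 10 were tested with limma 3.58.1 (mean-variance trend, R 4.3.3) on log2(value + 1), which understates the change of low genes, with Benjamini-Hochberg adjustment over all tested genes and a threshold of 0.05. Whole reads were recovered for 100% of values (within 0.01) and tested with edgeR 4.0.16 (5501 genes called) and DESeq2 1.42.0 (5611), beside 5425 by limma. Gene positions and exon lengths came from GENCODE M21 on GRCm38, matched by identifier (99.7% found, 84.8% with the same version). Other settings changed the pseudocount, filter, scaling, trend, a length and GC correction, or left out each library. A term for sex and a block on the column number were added after seeing the data. Scripts were tested on simulated data.

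The members, pathway lists and marker lists were chosen with earlier results of these data known. Genes named were the 8 kinases, from each pathway list up to 2 called genes with the largest rise and 2 with the largest fall, defining markers (the first 3 of each list) where they bear on a kinase, and the genes most alike by Pearson r. Slc17a6, Tnnt1, Ly6c1, Lck, Xist, Rictor, Pick1 and Cspg4 were named outside this rule, after their values were seen. Not every gene of the family is reported here.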

Additional observations from a re-analysis of the deposited data

How the results depend on the processing

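The count of called protein kinase C genes was 2 as reported and 2 with edgeR, 3 with DESeq2 (Prkcb, Prkch and Prkcq) and 3 with the length and GC correction (Prkca, Prkcb and Prkce). It was 1 under quantile normalization (Prkcb), 0 by limma without the trend and 0 with a term for sex. Leaving out 1 library gave 0 to 3 called kinases, 0 without Air library 1 or 2 or Hyperoxia library 1, and 3 without Hyperoxia library 3. The same changes gave 3048 to 7756 called among all tested genes (3048 without Air library 1, 3087 without Air library 2, 3378 without Hyperoxia library 1), 21 to 40 among the pathway genes, and a Prkcb to Prkca log2 difference of 0.51 to 0.67. The sign of Prkci turned with the length and GC correction (Prkci log2 fold change −0.047, limma adjusted p = 0.62) and without Hyperoxia library 1 (−0.011), and leaving out 1 library gave −0.011 to 0.15 for Prkci (0.147 without Hyperoxia library 2). The other 7 kinases kept their sign in all 18 other settings. Prkcd, Prkci and Prkcz were called in 0 of 18, Prkce in 2, Prkca and Prkcq in 3 each, Prkch in 9 and Prkcb in 11. The causes of these changes were not tested. With the column number 1 to 3 as a replicate block, 4 kinases were called (Prkca, Prkcb, Prkch and Prkcq) and 6211 of all tested genes. Nothing in the labels ties these numbers across groups, and the deviations of same-numbered libraries correlated at −0.079, 0.13 and 0.095 over genes, so they were not treated as pairs. Depth limited Prkch most, at 103 reads in its lowest library.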

Other observations

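Summed over each pathway list, the normalized counts describe how the most counted genes moved. The diacylglycerol kinase genes summed to 38045 to 38616 in air and 31863 to 36351 in hyperoxia, without overlap, although more of them were called higher than lower. The genes of other diacylglycerol-binding families summed to 64230 to 65585 in air and 49044 to 61154 in hyperoxia, also without overlap. The substrates summed to 124782 to 132457 in air and 101501 to 109540 in hyperoxia, again without overlap. For the phospholipase C genes the ranges overlapped, at 16587 to 17733 in air and 15946 to 17529 in hyperoxia, as they did for the priming, phosphatase and anchoring genes, at 40954 to 43087 and 41923 to 43262. The protein kinase D and related genes went the other way, with 3306 to 3581 in air and 3673 to 4259 in hyperoxia. These sums were not tested, and they follow genes of high count such as Dgkz, Chn1 and Nrgn.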
